A study of Mus musculus with 8 samples.

Results

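Zscan4 and other genes of the 2-cell-like state were followed in JUN TetON mouse embryonic stem cells (ESCs). Their rows were picked by name from the deposited expression table: *Zscan4a*, *Zscan4b*, *Zscan4c*, *Zscan4d*, *Zscan4e*, *Zscan4f*, *Tcstv1*, *Tcstv3* and *Zfp352*, which makes 9 of 50600 gene rows, and all 9 names were found. The names were put forward with the values of these libraries already known. Their levels and differences are therefore given as a description, without a p-value.

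In the study, doxycycline switches on JUN in ESCs and drives them out of pluripotency, and compounds against bromodomains of chromatin remodelling (BAF) complexes were added to ask which genes depend on them. All 8 libraries came from OG2 ESCs, which carry an Oct4-driven GFP reporter, with the genotype c-Jun_TetOn_mESC and a mixed 129SVJ, C57B6 and CBA background. The cells were grown without feeders in 2i medium with LIF, were at passage 12 and all received 2 µg/ml doxycycline. The groups differed in what was added for 6 h, namely DMSO (the solvent and control), PFI-3 (which binds the bromodomain of BRG1, the BAF ATPase), BI-9564 (which binds those of BRD9 and BRD7) or both compounds (P+B). The labels give this time for doxycycline too, whereas the study's legend gives a longer JUN induction than compound treatment, and the labels leave the compound doses of P+B unstated. Each group had 2 libraries, labelled replicate 1 and replicate 2. No library without doxycycline was included, so JUN was induced in the control too. The labels do not say whether the replicate numbers mark separate cultures, days or preparations, so the spread between them may be technical.

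ESC cultures hold a small and changing share of cells that switch, for a short time, to a programme of the 2-cell embryo. In these cells the transcription factor DUX (the mouse gene is named *Duxf3* in the table) turns on the Zscan4 cluster, the Tcstv genes, *Zfp352* and many repeat-derived transcripts, and the POU5F1 protein is low while its RNA is kept. The Zscan4 genes code for proteins with a SCAN domain and zinc fingers, which are known for telomere lengthening and genome stability in ESCs. *Tcstv1* and *Tcstv3* are transcripts of the 2-cell stage, and *Zfp352* codes for a zinc finger protein of that stage. In bulk RNA, fewer cells in this state and less RNA per such cell cannot be told apart.

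The Zscan4 genes are near copies of each other. In the GRCm38 (mm10) annotation of GENCODE the 6 members lie in 1 cluster with 3 further names, *Zscan4-ps1*, *Zscan4-ps2* and *Zscan4-ps3*, between chr7:10794242-11614112, a stretch of 819.9 kb. *Zscan4a* (chr7:10794242-10799057, minus strand) is annotated as an unprocessed pseudogene. *Zscan4b* (chr7:10900740-10905050, minus strand), *Zscan4c* (chr7:11005745-11010547, plus strand), *Zscan4d* (chr7:11161374-11166159, minus strand) and *Zscan4f* (chr7:11397915-11402318, plus strand) are protein coding. *Zscan4e* (chr7:11306378-11310682, minus strand) is protein coding in GENCODE and a pseudogene in RefSeq. The longest transcript of each of the 9 Zscan4 names has 4 exons. *Tcstv1* (chr13:119893388-119894785, minus strand), *Tcstv3* (chr13:120316878-120318178, plus strand) and *Zfp352* (chr4:90218820-90225702, plus strand) lie elsewhere and are protein coding.

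Between the longest transcripts of the 6 Zscan4 members, 96.6% (*Zscan4b* and *Zscan4d*) to 99.7% (*Zscan4b* and *Zscan4e*) of aligned bases were identical over the 15 pairs. With the 3 further names the highest identity was 99.8%, between *Zscan4f* and *Zscan4-ps2*. Of all stretches of 75 bases in a gene's transcripts, 84.5% for *Zscan4e*, 83.4% for *Zscan4f*, 83.2% for *Zscan4b* and 78.6% for *Zscan4c* also occurred in another member or Zscan4 name. The share was 50.9% for *Zscan4a* and 39.5% for *Zscan4d*. A read from such a stretch fits several copies, so the split of the values among copies is uncertain, and the sum over the copies is given beside them. *Tcstv1* and *Tcstv3* were 87.7% identical and shared fewer such stretches, 5.37% and 10.6%, and *Zfp352* shared none.

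**Figure D1:**
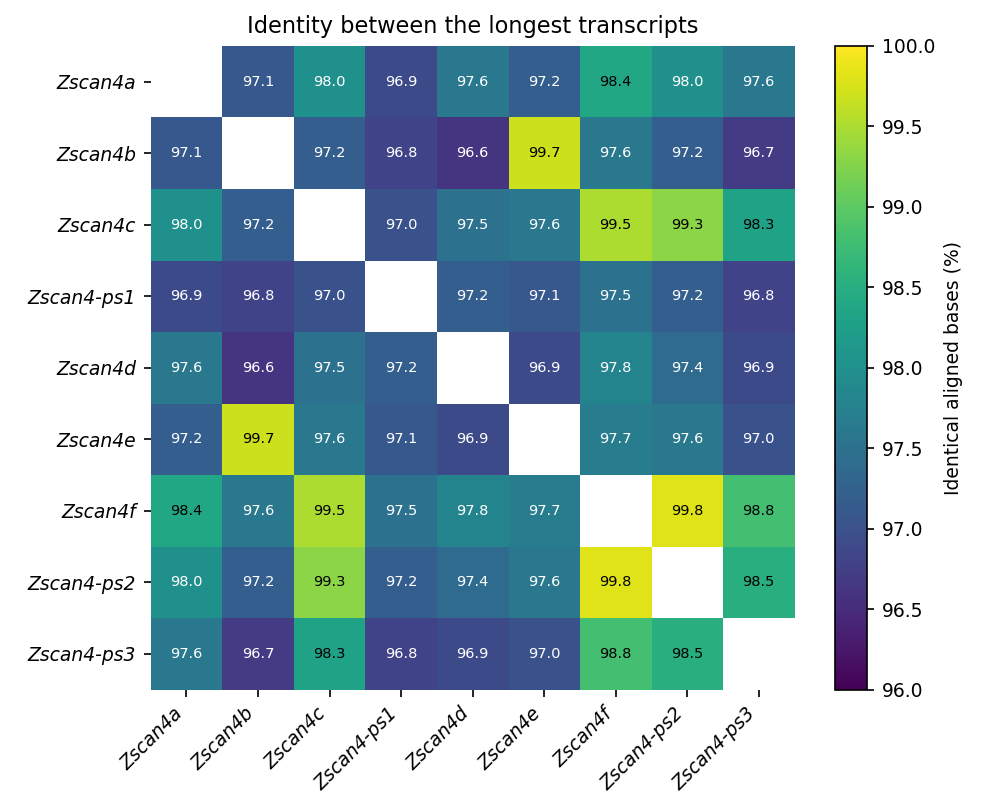
Percent of identical aligned bases (colour, 96 to 100%) between the longest GENCODE transcripts of the 9 Zscan4 names, in their order along the cluster on both axes. The values run from 96.6% to 99.8%, with the yellow cells at *Zscan4b* with *Zscan4e* and at *Zscan4f* with *Zscan4-ps2*.

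The oligos that the study designed against *Zscan4f* show how alike the copies are, and they are printed here because a hairpin or qPCR assay built on them would read the same family. The target of the hairpin, without the loop, and the forward primer were found without a mismatch in all 9 Zscan4 names. The reverse primer matched 7 of the 9 names and 5 of the 6 members, with 1 mismatch in *Zscan4d* and in *Zscan4-ps3*.
Zscan4f hairpin target: gaaagccagtggtagcgatat
Zscan4f forward primer: agtggaaagccagtggtagc
Zscan4f reverse primer: agagggcttcttgtccttgc

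Upstream of the genes the copies were again close to each other. RefSeq (GRCm38.p6) gave promoter sequence for 5 of the 9 members, *Zscan4b*, *Zscan4c*, *Zscan4d*, *Zscan4f* and *Zfp352*. The windows were 300 bases long, from 250 bases before the start to 50 after it, and those of the 4 Zscan4 genes were 95.3% to 99.3% identical. The 200 bases before the annotated start are shown for the Zscan4 genes, 5′ to 3′ on the gene's strand. Capitals mark the TATA box TATAAA and the AP-1 motif, the latter searched because JUN was induced in every library. It was searched in the loose form TGANTCA, with any base allowed at N.
Zscan4b (chr7:10905051-10905250, minus strand): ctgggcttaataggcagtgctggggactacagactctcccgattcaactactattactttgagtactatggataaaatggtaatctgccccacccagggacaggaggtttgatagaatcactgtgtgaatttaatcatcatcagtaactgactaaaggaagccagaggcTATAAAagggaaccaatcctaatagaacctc
Zscan4c (chr7:11005545-11005744, plus strand): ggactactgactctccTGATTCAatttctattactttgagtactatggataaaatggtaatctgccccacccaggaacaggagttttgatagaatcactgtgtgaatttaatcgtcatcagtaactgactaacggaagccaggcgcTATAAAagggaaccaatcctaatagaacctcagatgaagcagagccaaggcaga
Zscan4d (chr7:11166149-11166348, minus strand): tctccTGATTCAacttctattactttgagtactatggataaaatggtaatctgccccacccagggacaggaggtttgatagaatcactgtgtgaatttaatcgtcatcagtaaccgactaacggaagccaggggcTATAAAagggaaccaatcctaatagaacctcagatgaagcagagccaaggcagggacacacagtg
Zscan4f (chr7:11397715-11397914, plus strand): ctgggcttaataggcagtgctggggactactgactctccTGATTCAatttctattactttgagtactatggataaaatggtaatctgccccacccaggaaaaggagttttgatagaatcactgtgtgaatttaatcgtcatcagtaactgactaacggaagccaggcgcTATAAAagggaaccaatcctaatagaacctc

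The motifs were searched on both strands. A match to the loose AP-1 motif was present in *Zscan4c* (first base at −184 from the start), *Zscan4d* (−195) and *Zscan4f* (−161) and not in *Zscan4b*. Each match reads TGATTCA, with T and not C or G at the middle base. Positions count from the RefSeq start, which in *Zscan4d* lies inside the GENCODE gene given above. A TATA box was present in all 4, with its first base at −31 in *Zscan4b* and *Zscan4f*, −54 in *Zscan4c* and −65 in *Zscan4d*. These are matches of letters, and nothing in these libraries measures binding. Of 32851 promoters of the same length, 7.81% held the AP-1 motif in this loose form and 13.6% the TATA box. The motif TGCACAC, which ZSCAN4 binds, was found in none of the 5 promoters and in 4.4% of all, and the *Zfp352* window held none of the 3 motifs.

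The values are transcript levels scaled by length and to a fixed library total (TPM), which the authors made whole numbers, so they are per length and levels of different genes can be compared. Library sums were 991574 to 991897. TPM keeps no read number, so the depth of the libraries is unknown and no counting error is given, and a value of 1 or 2 is known only to the nearest whole number or to the whole number below it. Between 10285 and 10451 genes per library reached a value of 5. *Jun* was at 1569 to 3011, and each of the 10 ESC markers reached a mean of 5, with *Pou5f1* at 1104 to 1333. Of 10 fibroblast or feeder markers 6 were listed at 0 in every library (*Col1a2*, *Dcn*, *Lum*, *Postn*, *Twist2* and *Prrx1*), and the list summed to at most 5.

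In all 4 treatments the Zscan4 genes were higher in replicate 2 than in replicate 1. The summed value of *Zscan4a* to *Zscan4f* was 15 in replicate 1 and 108 in replicate 2 under DMSO, 20 and 90 under PFI-3, 14 and 104 under BI-9564, and 21 and 103 under P+B. The replicate 1 libraries thus lay between 14 and 21 (mean 17.5 ± 3.51, SD, n = 4) and the replicate 2 libraries between 90 and 108 (mean 101 ± 7.8, SD, n = 4), without overlap. The ratio of replicate 2 to replicate 1 was 7.2 under DMSO, 4.5 under PFI-3, 7.43 under BI-9564 and 4.9 under P+B. On the log2 scale of the sum the mean difference was 2.55 ± 0.37 (SD over the 4 treatments), which is 5.86-fold. If the decimals had been dropped and every value were raised by 1, the ratios would be 5.43, 3.69, 5.5 and 4.04 in the same order.

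**Figure D2:**
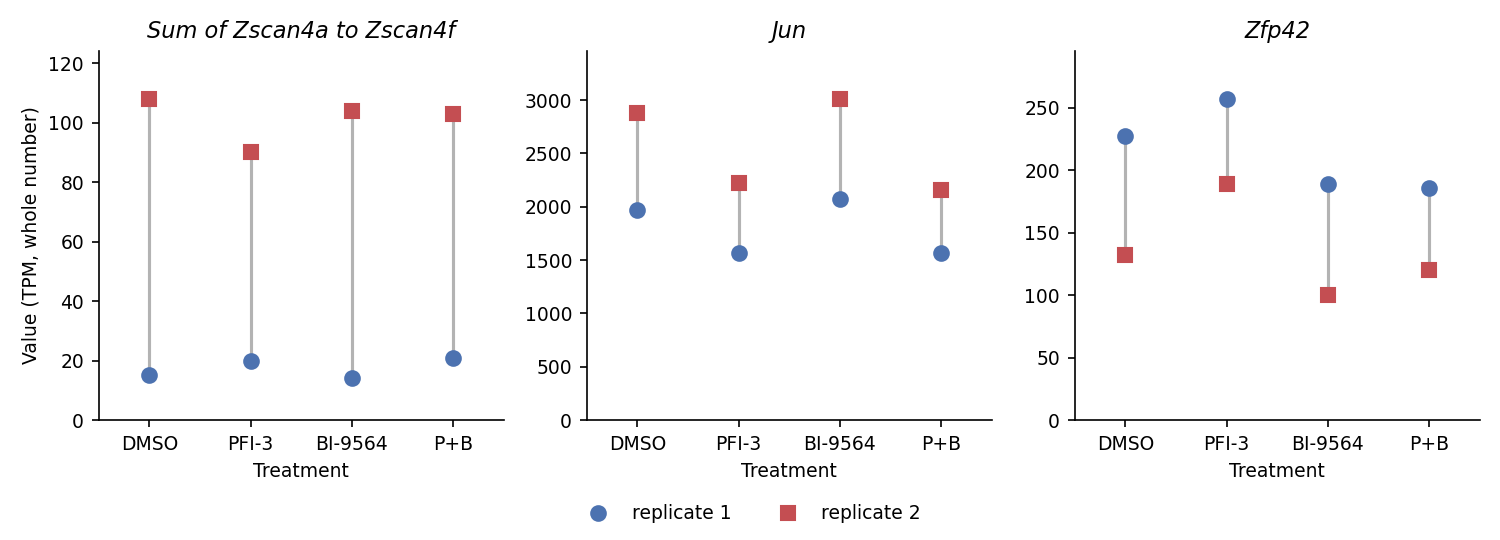
Summed value of *Zscan4a* to *Zscan4f* (left), *Jun* (middle) and *Zfp42* (right) in each of the 8 libraries, as whole-number TPM on axes that start at 0, by treatment. Blue circles are replicate 1, red squares replicate 2, and grey lines join the libraries of a treatment. The Zscan4 sum is 14 to 21 in replicate 1 and 90 to 108 in replicate 2, *Jun* is higher and *Zfp42* lower in replicate 2 in all 4 treatments.

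*Zscan4f*, the member with the highest level in every library, was at 6 and 41 (replicate 1 and replicate 2) under DMSO, 8 and 31 under PFI-3, 5 and 41 under BI-9564, and 9 and 40 under P+B. *Zscan4e* was at 4 and 24, 2 and 21, 3 and 17, and 5 and 24 in the same order of treatments. *Zscan4c*, a copy known from ESCs, was at 3 and 23, 3 and 19, 3 and 15, and 2 and 17. In these 3 genes every replicate 2 library lay above every replicate 1 library. The same held for *Zscan4d*, the copy known as the main one in the 2-cell embryo, with 1 and 9, 2 and 10, 0 and 13, and 1 and 11. Of the 10222 genes whose mean over the libraries reached 5, 6.1% had no overlap between the replicate numbers in either direction.

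The 2 copies of lowest level overlapped between the replicate numbers. *Zscan4a*, the annotated pseudogene, was at 1 and 9 under DMSO, 2 and 4 under PFI-3, 1 and 9 under BI-9564, and 4 and 8 under P+B. *Zscan4b* was at 0 and 2, 3 and 5, 2 and 9, and 0 and 3. Both were higher in replicate 2 within each treatment, but PFI-3 replicate 2 of *Zscan4a* was at the level of P+B replicate 1, and PFI-3 replicate 1 of *Zscan4b* was above DMSO replicate 2.

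The order of the copies was alike in both replicate numbers at the upper end. *Zscan4f* made up a median of 40% of the summed value in replicate 1 and 38.4% in replicate 2, *Zscan4e* 22.6% and 22.8%, and *Zscan4c* 17.5% and 18.8%. In replicate 2 the range of *Zscan4e* (17 to 24) overlapped that of *Zscan4c* (15 to 23), *Zscan4d* (9 to 13) lay below both, *Zscan4a* (4 to 9) met it at its upper end, and *Zscan4b* (2 to 9) overlapped *Zscan4a*. *Zscan4f* (31 to 41) was apart from all of them. In replicate 1 the values below *Zscan4f* were 0 to 5, and the order of *Zscan4a*, *Zscan4b* and *Zscan4d* was not separated there.

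*Tcstv1* was listed at 0 in all 4 replicate 1 libraries, and in replicate 2 it was at 1 under DMSO, 0 under PFI-3, 5 under BI-9564 and 5 under P+B. *Tcstv3* was at 0 and 2 under DMSO, 0 and 1 under PFI-3, 2 and 3 under BI-9564, and 0 and 1 under P+B. Where these genes had a value it was higher in replicate 2, but at 5 or less the values rest on few whole numbers. No fold is given against libraries listed at 0. *Zfp352* was listed at 0 in all 8 libraries.

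**Figure D3:**
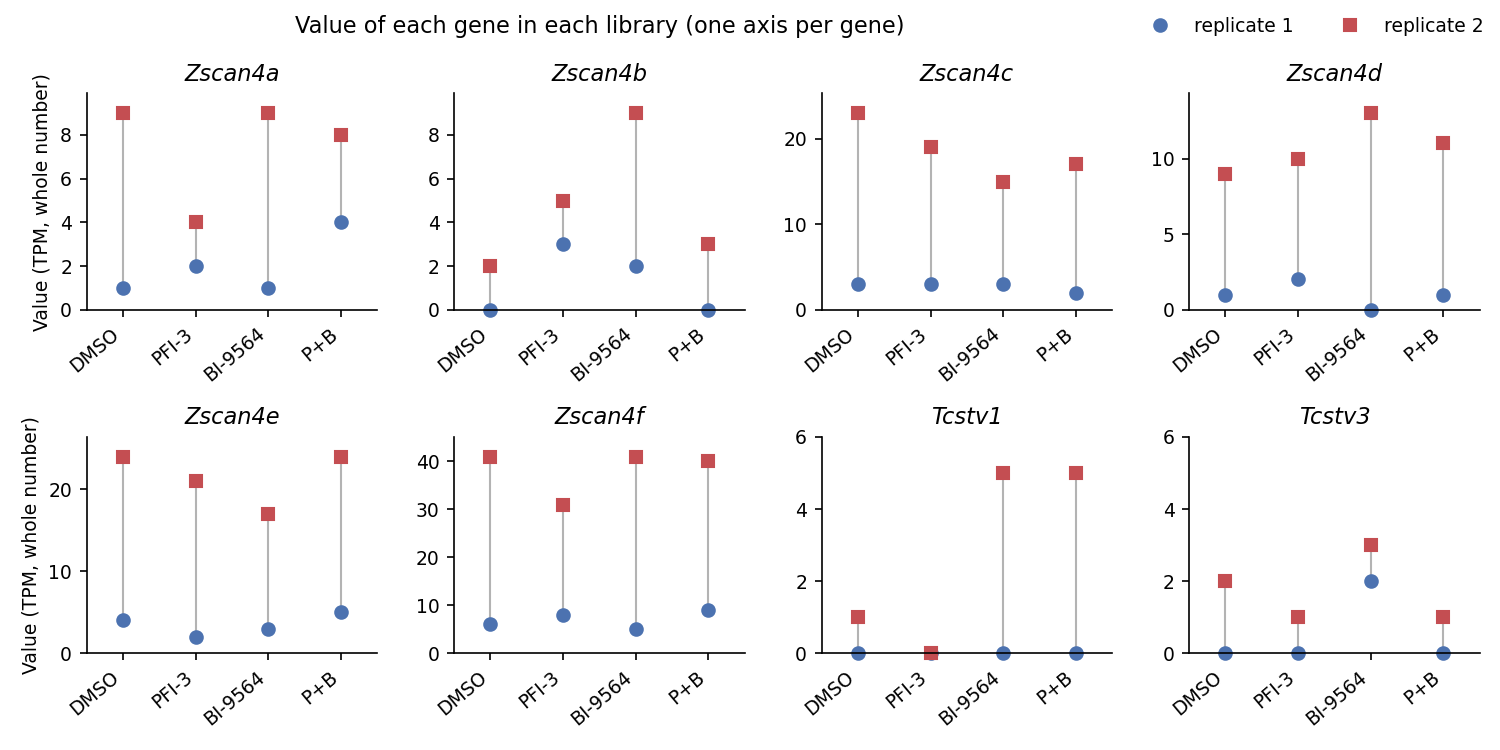
Value of 8 members in each library (whole-number TPM, a separate axis from 0 for each gene), by treatment, with blue circles for replicate 1, red squares for replicate 2 and a grey line joining the libraries of a treatment. *Zscan4c*, *Zscan4d*, *Zscan4e* and *Zscan4f* show no overlap between the numbers, *Tcstv1* and *Tcstv3* stay at 5 or less, and *Zfp352*, at 0 throughout, is not drawn.

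In all, 7 of the 9 members were higher in replicate 2 within each of the 4 treatments, namely the 6 Zscan4 genes and *Tcstv3*. Of the 10222 genes whose mean reached 5, 11.1% did so, and of the 13101 whose mean reached 1, 9.59% did. Near copies share reads, so the 6 Zscan4 genes are not 6 separate observations beside these shares. To place the size of the difference, log2(value + 1) was fitted by limma for every gene whose mean reached 5, with treatment and replicate number as terms. The filter kept *Zscan4c*, *Zscan4d*, *Zscan4e* and *Zscan4f* and left out the other 5 members. *Zscan4c*, *Zscan4d* and *Zscan4e* passed it only through replicate 2, where they are high, so a difference in that direction was built into their passing, while *Zscan4f* was at 5 or more in every library. The difference (replicate 2 minus replicate 1, ± SE) was 2.37 ± 0.18 in *Zscan4c*, 2.65 ± 0.35 in *Zscan4d*, 2.36 ± 0.18 in *Zscan4e* and 2.31 ± 0.18 in *Zscan4f*. By signed difference these were ranks 4, 3, 5 and 6 from the top of 10222 genes, which are not independent of each other either. With 5 in place of 1 added before the logarithm they were 1.59, 1.40, 1.64 and 1.85, as low values are compressed more.

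Over all genes the median difference was −0.01, and 99.1% lay within 1 of 0. The fit takes the 4 treatments as repeats of each replicate number. Its SEs and p-values between the numbers thus measure how steady a difference was over treatments, and not the spread between further series of libraries. In this fit 1.32% of tested genes were called (135, of which 57 were higher and 78 lower in replicate 2; limma, Benjamini-Hochberg adjusted p under 0.05 and at least 1.5-fold). The mean of replicate 2 was at least 4-fold that of replicate 1 in 0.117% of tested genes, 12 in number. *Zscan4c*, *Zscan4d*, *Zscan4e* and *Zscan4f*, which share reads, are among them. On the log2(value + 1) scale 9 genes lay at 2 or more and 5 at −2 or less. Differences of the members outside the filter, not fitted, were 1.56 in *Zscan4a*, 1.48 in *Zscan4b*, 1.54 in *Tcstv1* and 1.00 in *Tcstv3* on the same log2(value + 1) scale.

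**Figure D4:**
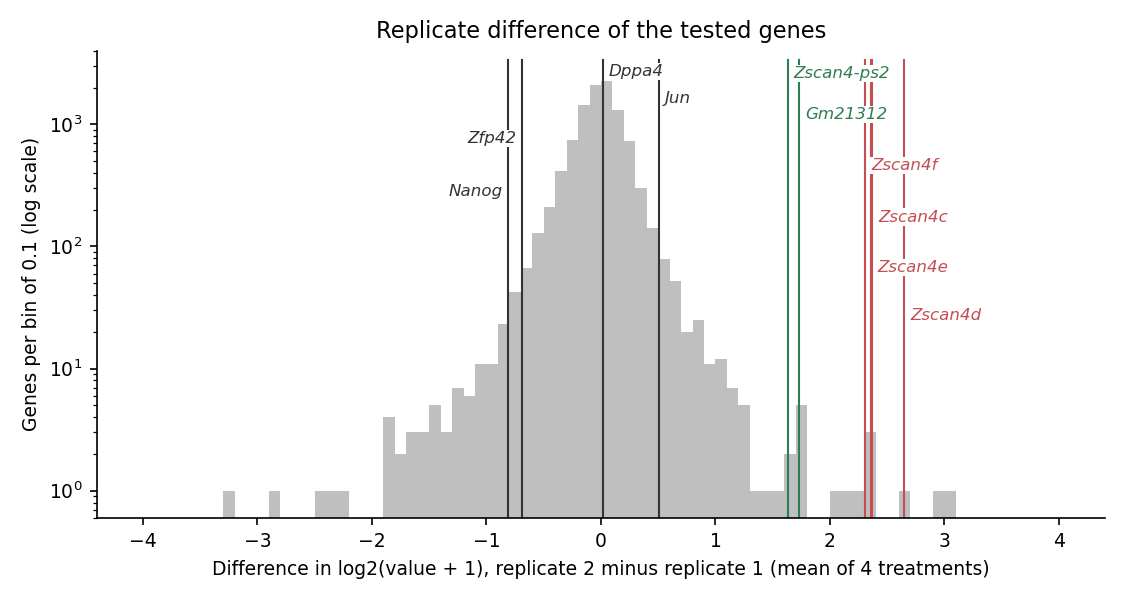
Number of genes (log scale, bins of 0.1) by their difference in log2(value + 1) between replicate 2 and replicate 1, for the 10222 genes tested. Vertical lines mark *Zscan4c*, *Zscan4d*, *Zscan4e* and *Zscan4f* (red, 2.31 to 2.65), *Gm21312* and *Zscan4-ps2* (green, 1.73 and 1.63) and *Jun*, *Dppa4*, *Zfp42* and *Nanog* (black, 0.51, 0.02, −0.69 and −0.81).

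Between treatments the Zscan4 sum differed much less than between replicate numbers. The summed value per treatment was 61.5 ± 65.8 under DMSO, 55 ± 49.5 under PFI-3, 59 ± 63.6 under BI-9564 and 62 ± 58 under P+B (mean ± SD, n = 2). The SD of each treatment was about as large as its mean, and no neighbours in this order were apart beyond their spread. Within replicate 1, P+B was 1.4-fold DMSO, PFI-3 1.33-fold and BI-9564 0.933-fold. Within replicate 2 the same ratios were 0.954, 0.833 and 0.963, so P+B and PFI-3 lay above the control in one number and below it in the other. Between the compounds, P+B was 1.05-fold PFI-3 within replicate 1 and 1.14-fold within replicate 2, and 1.5-fold and 0.99-fold BI-9564. BI-9564 was 0.7-fold and 1.16-fold PFI-3.

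None of the 4 fitted members was called in any of the 6 comparisons between treatments, with or without the replicate number as a block. The share of all genes called was 4% for P+B against DMSO, 0% for PFI-3 against DMSO (694 genes had an unadjusted p under 0.05), 0.108% for BI-9564 against DMSO, 1.31% for P+B against PFI-3, 0.196% for P+B against BI-9564 and 0.108% for BI-9564 against PFI-3. With the block the shares were 7.02%, 0%, 1.53%, 3.43%, 0.802% and 1.48%. For the members the block changed the error and not the difference. The SE of *Zscan4f* between treatments was 1.17 without it and 0.25 with it, that of *Zscan4c* 1.20 and 0.26, that of *Zscan4e* 1.19 and 0.26, and that of *Zscan4d* 1.39 and 0.50. Without the block a 2-fold difference (1 on the log2 scale) in these genes is therefore within 1 SE.

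With P+B against DMSO the difference in log2(value + 1) was 0.24 in *Zscan4f* (0.51 within replicate 1 and −0.03 within replicate 2), 0.13 in *Zscan4e* (0.26 and 0.00), 0.13 in *Zscan4d* (0.00 and 0.26) and −0.42 in *Zscan4c* (−0.42 in both). The median of the 4 was 0.13, beside 0.06 over all tested genes. With PFI-3 against DMSO the values were −0.01 in *Zscan4f*, −0.46 in *Zscan4e*, 0.36 in *Zscan4d* and −0.13 in *Zscan4c*, with a median of −0.07 beside 0.02. With BI-9564 against DMSO they were −0.11, −0.40, −0.26 and −0.29, with a median of −0.27 beside 0.02. The 3 comparisons share the DMSO libraries. The copies did not move as one in P+B or PFI-3, where some differences were positive and others negative, and in BI-9564 the 4 differences were negative and each smaller than 2 of its SEs with the block, though that of *Zscan4d* was 0.05 with 5 added before the logarithm.

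**Figure D5:**
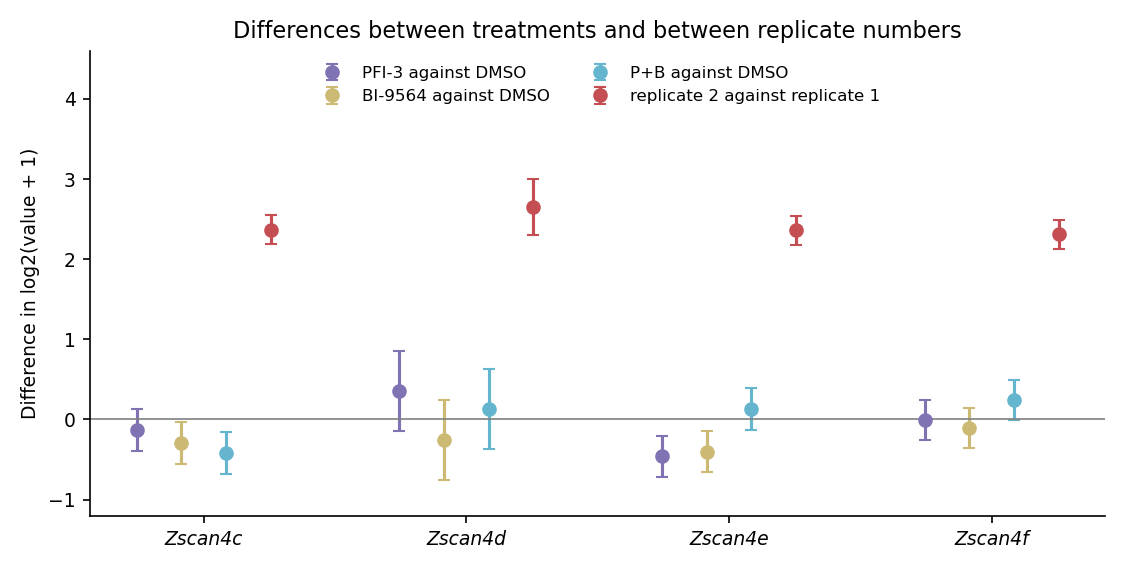
Difference in log2(value + 1) of the 4 fitted members for each compound against DMSO (purple, yellow and blue) and for replicate 2 against replicate 1 (red), with bars of 1 SE from the fit blocked by replicate number. The replicate differences are 2.31 to 2.65, and the differences between treatments are −0.46 to 0.36.

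*Zscan4b* was the member whose PFI-3 libraries (3 and 5) lay above both DMSO libraries (0 and 2). *Tcstv3* in turn was at 2 and 3 under BI-9564, above PFI-3 (0 and 1) and P+B (0 and 1). No other member was without overlap in any of the 6 comparisons, and both rest on values of 5 or less. Of the genes whose mean reached 5, 29.3% had no overlap between PFI-3 and DMSO, 40.5% between BI-9564 and PFI-3, 31.4% between P+B and BI-9564, 47.5% between P+B and DMSO, 41.2% between BI-9564 and DMSO and 42.7% between P+B and PFI-3.

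The further names of the cluster, which share much of their sequence with the members, were also mostly higher in replicate 2. *Zscan4-ps2*, the copy closest to *Zscan4f*, was at 3 and 16 (replicate 1 and replicate 2) under DMSO, 4 and 17 under PFI-3, 3 and 18 under BI-9564, and 3 and 4 under P+B. P+B replicate 2 thus stood apart from the other replicate 2 libraries in this copy, while the members' sum there, 103, did not. *Zscan4-ps3* was at 1 and 9, 2 and 7, 1 and 9, and 2 and 4, and *Zscan4-ps1* at 3 or less. Over all 9 Zscan4 names the sums were 19 and 136, 27 and 115, 18 and 133, and 26 and 111, with ratios of 7.16, 4.26, 7.39 and 4.27. The cluster spans 44 other annotated genes, none with a mean of 5. Within 1 Mb on either side 2 genes were tested, *Zfp606* and *Zik1*, with replicate differences of 0.00 in both.

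Other genes linked to the 2-cell-like programme were read from a list of 60 names. It also holds *Nelfa*, listed as an activator of the state too, and *Zfp809*, known for silencing retroviral sequences. Of the 60, 56 were in the table, 25 were at 0 in all libraries and 6 passed the filter. Between the replicate numbers 2 of the 6 were called (1.32% of all tested genes were), both higher in replicate 2, and none lower. *Gm21312* was at 2 and 9 under DMSO, 2 and 7 under PFI-3, 1 and 8 under BI-9564, and 4 and 14 under P+B, a difference of 1.73 (SE 0.23, limma adjusted p = 0.00934). Both passed the filter only through replicate 2, which favours that direction. *Zscan4-ps2* differed by 1.63 (SE 0.33, limma adjusted p = 0.0415), and 81% of its stretches of 75 bases are shared with members or other copies. The other 4 were *Gm4340* (at 0 to 19 without order by number, 1.80, SE 0.66, limma adjusted p = 0.187), *Nelfa* (0.09), *Ddit4l* (−0.05) and *Zfp809* (−0.12). The median of the 6 was 0.86, beside −0.01 over all tested genes. Without either P+B library 1 of the 6 was called, *Zscan4-ps2*, and without any other library 0, so that the call on *Gm21312* was lost with each library left out.

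Of the 19 listed genes whose mean reached 1, 9 were higher in replicate 2 within every treatment, beside 9.59% of all genes at that level, and none of the tested ones was lower in every treatment. They were *Usp17le*, *Gm5662*, *Gm8300*, *Gm8994*, *Gm6763*, *Gm21312*, *Gm21761*, *Zscan4-ps2* and *Zscan4-ps3*. *Gm6763*, for example, was at 1 and 6 under DMSO, 2 and 7 under PFI-3, 1 and 7 under BI-9564, and 0 and 9 under P+B. *Usp17le*, of a family of ubiquitin proteases, was at 2 and 5, 1 and 4, 0 and 4, and 1 and 2. *Pramef8* was at 3 to 6 in all libraries and did not separate the numbers. Several of these are near copies of each other too, as *Gm21312* had the same value as *Gm20765* and *Gm21304* in every library. Of their stretches of 75 bases, *Zscan4-ps2* and *Zscan4-ps3* share 81% and 62.6% with members or other copies, so they partly repeat the members. The mean of 1 was reached only through replicate 2 in *Gm8300* and *Gm8994*, both at 0 or 1 in replicate 1, which favours that direction.

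Between treatments 1 gene of that list was called, in comparisons where 4% (P+B against DMSO) and 1.31% (P+B against PFI-3) of all tested genes were. *Zfp809*, a listed zinc finger protein that is known for silencing retroviral sequences, was higher under P+B (87 and 93) than under DMSO (57 and 45), by 0.82 (SE 0.14, limma adjusted p = 0.0203), and than under PFI-3 (56 and 46), by 0.81 (SE 0.14, limma adjusted p = 0.0395). With BI-9564 it was at 77 and 79, with 0.61 against DMSO (SE 0.14, limma adjusted p = 0.134, or 0.0526 with the block). Against DMSO the call was lost without any 1 of the DMSO or P+B libraries. *Nelfa*, which is known to act with TOP2A in turning on *Dux*, was at 51 to 62 under DMSO and PFI-3 and at 73 to 75 under BI-9564 and P+B. It was not called (P+B against DMSO 0.39, limma adjusted p = 0.0982, or 0.0462 with the block, under 1.5-fold).

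None of the tested activators of the state was called between the replicate numbers. *Duxf3*, the driver, was listed at 0 in all 8 libraries. Of 10 listed activators 9 were in the table and 7 were tested, and limma called 0 in any comparison with or without the block. *Dppa4* was at 75 to 87 (replicate difference 0.02, SE 0.07) and *Dppa2*, its partner in priming the *Dux* locus, at 60 to 81 (−0.07, SE 0.07). *Top2a* (284 to 316), *Patz1* (88 to 108) and *Nelfa* were the others of highest level, with differences of −0.09, −0.04 and 0.09.

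Of 32 listed repressors of the state, all tested, 1 was called between the replicate numbers, beside 1.32% of all tested genes. *Zfp42* (REX1), a pluripotency gene and a repressor of retrotransposons, was at 227 and 132 under DMSO, 257 and 189 under PFI-3, 189 and 100 under BI-9564, and 186 and 120 under P+B, lower in replicate 2 by 0.69 on the log2 scale (difference −0.69, SE 0.08, limma adjusted p = 0.00528). *Hdac2* (−0.38), *Lin28a* (0.43) and *Ncl* (0.23) passed the p-value (limma adjusted p = 0.00566, 0.0193 and 0.00934) and not the fold. *Trim28* (KAP1), the scaffold of retrotransposon silencing, was at 1620 to 1827, and *Sumo2* at 613 to 723. The median over the list was 0.05. Within every treatment 9 of the 32 were higher in replicate 2 and 5 were lower, beside 11.1% and 12.8% of all tested genes. With P+B against DMSO 1 of the 32 repressors was called, beside 4% of all tested genes. This was *Myc*, lower by 1.16 on the log2 scale (difference −1.16, SE 0.15, limma adjusted p = 0.00546). With the block *Myc* was also called against PFI-3 and against BI-9564, *Tet1* for BI-9564 against DMSO, and *Tet1*, *Tet2* and *Zfp42* for BI-9564 against PFI-3, all lower. The blocked shares of all genes called in these comparisons were 3.43%, 0.802%, 1.53% and 1.48%. The call on *Zfp42* between the numbers held without either PFI-3 library (1 called) and was lost without any other library (0 called), and that on *Myc* was lost without DMSO replicate 1 or P+B replicate 2.

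Telomere genes were followed because ZSCAN4 acts on telomeres. Of 24 listed, 20 were tested and 0 were called in any comparison by limma, also with the block. *Nop10*, of the telomerase RNA complex, was at 128 and 157 under DMSO, 133 and 172 under PFI-3, 105 and 150 under BI-9564, and 117 and 136 under P+B, and passed the p-value between the replicate numbers (0.35, SE 0.06, limma adjusted p = 0.025) and not the fold. *Dkc1* differed by 0.23 (SE 0.05, limma adjusted p = 0.0501), *Gar1* by 0.13 and *Terf1*, which binds telomere repeats, by −0.20. Of the 21 listed genes whose mean reached 1, 2 were higher in replicate 2 within every treatment, *Nop10* and *Dkc1*. The 5 lower in every treatment were *Tinf2*, *Rad50*, *Tert*, *Hormad1* and, below the filter, *Tex101*. Of all genes at that level 9.59% were higher and 11.1% lower. *Nhp2*, of the same complex, was at 292 and 297 under DMSO and 225 and 200 under P+B, and passed the p-value there (−0.47, SE 0.09, limma adjusted p = 0.0228, or 0.00656 when blocked) and not the fold. *Atrx* was at 126 to 159.

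Other genes moved with the replicate number beside the Zscan4 genes. *Jun*, the induced gene, was at 1970 and 2877 under DMSO, 1570 and 2227 under PFI-3, 2071 and 3011 under BI-9564, and 1569 and 2159 under P+B, higher in replicate 2 by 0.51 (SE 0.03, limma adjusted p = 0.000382), which is under 1.5-fold. Against DMSO *Jun* differed by −0.37 under P+B (limma adjusted p = 0.437, or 0.00156 with the block). Under PFI-3 it differed by −0.35 (0.876, or 0.116) and under BI-9564 by 0.07 (0.925, or 0.339), and it was not called. The 10 ESC markers summed to 4624 to 5484 in replicate 1 and 3566 to 4449 in replicate 2. Of the 10, 8 were lower in replicate 2 within every treatment, beside 12.8% of all tested genes. *Nanog* was called (difference −0.81, SE 0.09, limma adjusted p = 0.00429), and *Pou5f1* had a difference of −0.05. The part of JUN level and of the ESC markers in the Zscan4 difference was not tested. The markers of other cells stayed low in both numbers, at 2 to 5 and 0 to 2 for the 10 fibroblast or feeder markers, 4 to 6 and 3 to 10 for the 7 primitive endoderm markers (*Pdgfra*, *Foxa2* and *Sox7* at 0) and 19 to 24 and 19 to 28 for the 7 trophoblast markers (*Krt7* at 0).

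Across the 8 libraries, the genes with a pattern most like the Zscan4 sum on the log2 scale were *RP23-285L15.1* (Pearson's r 0.993), *RP24-496C8.9* (0.988), *Hnrnpk* (0.981), *Gm26905*, *Zc3h18* and *RP23-228C13.2* (0.97 each), out of 10200 genes searched, and 74 reached 0.9. *RP23-285L15.1* was at 48 to 54 in replicate 1 and 94 to 104 in replicate 2. *Hnrnpk*, an RNA-binding protein gene, was at 771 to 806 and 874 to 905, a ratio of 1.12. These r are a description, since the 8 libraries fall into 2 sets by replicate number and any gene that differs between the numbers scores high. For *Tcstv1* plus *Tcstv3* the most alike were *Reg2* (0.979), *Mterf4* (0.97) and *Rnps1* (0.956).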

How the data were processed

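RNA was taken with TRIzol, poly(A)-selected, made into libraries with a VAHTS mRNA-seq kit and sequenced on a NextSeq500. The submitters' processing notes name bcl2fastq, Bowtie2 2.2.5, RSEM 1.3.0 and mm10, and the study's methods name DESeq2, GO.db and Mfuzz. The authors deposited 1 table of 50600 rows and 8 libraries, whose values are a score, namely TPM made whole numbers by rounding or by dropping the decimals, which the sources used here do not settle. RSEM shares a read among the copies it fits, so values of near copies depend on that split. TPM holds no counts, so no count test was run.

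After adding 1, values were put on the log2 scale and fitted by limma 3.58.1 (R 4.3.3, trend on the mean) for the 10222 genes whose mean over the libraries was at least 5. The 4 groups were fitted together without a block, and the replicate number was tested in a fit with group and number. Called means a Benjamini-Hochberg adjusted p under 0.05 and at least 1.5-fold. With 2 libraries a group, p-values measure only the spread between these libraries. Those between the replicate numbers measure only how steady a difference was over the 4 treatments. The step from replicate 1 to replicate 2 within a group correlated between groups in all 6 pairs of groups (r 0.143 to 0.236 across genes). The labels' numbers were therefore taken to pair the samples in the blocked fit. The main fit of the treatments leaves this pairing out, so its p-values between treatments count the replicate difference as spread. A blocked fit is printed for the members, the counts of called genes and the list calls that moved with it, and for only some other genes. Sequence comparisons used GENCODE M21 transcripts (GRCm38), RefSeq promoters and the study's oligo lists, with Python 3.11.15 and Biopython 1.88.

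The members and lists were chosen with earlier results of these data known. The genes named are all members, *Jun*, from each list the genes called and then those of the highest mean, and the genes most alike in pattern. *Lin28a*, *Hdac2*, *Tet1*, *Tet2*, *Terf1*, the telomere genes lower in replicate 2 in every treatment and the genes of the 2-cell-like list below the filter were picked after their values were seen. The procedure was tested on simulated data with changes only under P+B, independent noise and no replicate difference. It thus did not test how the fit finds a replicate difference, nor members below the filter. Other settings tried were a block for the replicate number, pseudocounts of 0.5 and 5, other filters, quantile normalization, median centring and leaving out each library.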

Additional observations from a re-analysis of the deposited data

How the results depend on the processing

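The replicate difference of the Zscan4 genes kept its direction under every alternative run, with a log2 difference of the sum of 2.2 to 2.68 over 10 alternatives (2.44 to 2.68 with a library left out) and of *Zscan4c* to *Zscan4f* of 1.40 to 3.11 over 48. The differences of these members between treatments did not: of 312 values, 51 had the opposite sign (range −2.52 to 2.29), and of 60 values of the sum, 13 did, most of them where a library was left out, which leaves unequal replicate numbers (P+B against DMSO −1.22 without DMSO replicate 1 and 1.63 without DMSO replicate 2). With all libraries kept, the sign turned for the sum over every Zscan4 name in P+B against PFI-3 (−0.05), for *Zscan4d* in P+B against DMSO with quantile normalization (−0.17) and, with a pseudocount of 5, for *Zscan4d* in BI-9564 against DMSO (0.05) and *Zscan4e* in BI-9564 against PFI-3 (−0.02). With the replicate number as a block, 718 genes were called for P+B against DMSO in place of 409, 156 for BI-9564 against DMSO in place of 11, 351 for P+B against PFI-3 in place of 134, 82 for P+B against BI-9564 in place of 20 and 151 for BI-9564 against PFI-3 in place of 11, and the block changed no call on a member. With a mean of at least 1 these counts were 0 for BI-9564 against DMSO, 77 for P+B against PFI-3, 2 for P+B against BI-9564 and 0 for BI-9564 against PFI-3, and 1 telomere gene was called between the replicate numbers. Without a filter they were 201 for P+B against DMSO, 0 for BI-9564 against DMSO, 6 for P+B against PFI-3, 0 for P+B against BI-9564, 0 for BI-9564 against PFI-3 and 41 for replicate 2 against replicate 1, and no companion gene (0 in place of 1 for P+B, 0 in place of 2 between the numbers) and between the numbers no repressor (0 in place of 1) was called, with more genes in the adjustment. A count of 0 in BI-9564 against DMSO went with 1792 and 2101 genes at an unadjusted p under 0.05, in BI-9564 against PFI-3 with 1641 and 1907, and in P+B against BI-9564 without a filter with 1282. BI-9564 against DMSO gave 17 with a pseudocount of 5 and 21 with median centring, for which the cause was not tested. P+B against DMSO split into 131 higher and 278 lower, 81 and 305 with quantile normalization, and 86 and 401 with median centring. Leaving out 1 library at a time, the counts ran from 68 to 268 (P+B against DMSO), 0 to 1 (PFI-3 against DMSO), 0 to 1 (BI-9564 against DMSO), 0 to 51 (P+B against PFI-3), 0 to 7 (P+B against BI-9564), 0 to 1 (BI-9564 against PFI-3) and 32 to 52 (replicate 2 against replicate 1), and for companion genes and repressors from 0 to 1 under P+B and from 0 to 1 between the numbers. The values hold no depth, the lowest members rest on a few whole numbers, and reads shared by near copies leave the split among them unsettled.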

Other observations

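Beyond the 2-cell-like genes, the genes with the greatest replicate differences among those called, chosen after their values were seen, included *Dppa3*, *Fabp3* and *Krt42*, which were lower in replicate 2. *Dppa3*, a maternal factor that marks naive ESCs, was at 22 and 5 (replicate 1 and replicate 2) under DMSO, 30 and 7 under PFI-3, 26 and 6 under BI-9564, and 22 and 7 under P+B, a difference in log2(value + 1) of −1.84 (SE 0.14, limma adjusted p = 0.00144). *Fabp3*, a fatty acid carrier, was at 190 and 53, 212 and 78, 177 and 55, and 216 and 68 (−1.64, SE 0.07, limma adjusted p = 0.000133). The keratin gene *Krt42* was at 45 and 14, 36 and 12, 24 and 6, and 28 and 6 (−1.75, SE 0.13, limma adjusted p = 0.00144). In the other direction *Gm8332* was at 0 and 5, 0 and 6, 0 and 17, and 5 and 25, and *Gm5989* at 3 and 16, 4 and 10, 4 and 16, and 4 and 21 (1.78, SE 0.21, limma adjusted p = 0.00626).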
